A study of Mus musculus with 6 samples.

Results

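MHC and antigen processing genes were examined in RNA-seq of LT/ST-HSCs that lacked or carried Ltbr. The 10 genes, found by symbol among the 26216 gene names of the table, were the class I genes B2m, H2-K1, H2-D1, Tap1, Tap2 and Tapbp and the class II genes Cd74, H2-Aa, H2-Ab1 and H2-Eb1. LT/ST-HSCs are hematopoietic stem cells of long-term and short-term repopulating activity. Here they were sorted by FACS as lineage-negative Annexin-V- Sca1+ c-Kit+ CD150+ CD48- cells from the bone marrow of chimeric mice 6 weeks after transplantation. Cells that bound Annexin-V, a marker of apoptosis, were thus left out. The recipients were lethally irradiated Ly5.1/Ly5.2 mice that had received a mix of Ltbr-/- and Ly5.1 LSKs (lineage-negative Sca1+ c-Kit+ cells), so both genotypes came from the same hosts. Cells of several chimeras were pooled to 3 biological replicates of Ltbr-/- (CD45.2) and 3 of Ly5.1 (CD45.1, with intact Ltbr). The donors of the Ltbr-/- replicates were 13, 10 and 10 to 13 weeks old and those of every Ly5.1 replicate 7 to 13 weeks old. The knockout is constitutive, so it was present in the donor cells before transplantation, and the CD45 congenic line, the donor age and the Ltbr genotype cannot be told apart.

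MHC class I molecules consist of a heavy chain, here H2-K1 or H2-D1, and the light chain beta-2 microglobulin, encoded by B2m. They show peptides from the cytosol to CD8+ T cells. The proteasome cuts the peptides, the transporter made of TAP1 and TAP2 carries them into the endoplasmic reticulum, and tapasin, encoded by Tapbp, bridges the transporter and the empty heavy chain. MHC class II molecules pair an alpha chain (H2-Aa) with a beta chain (H2-Ab1), and H2-Eb1 encodes the beta chain of the E isotype. Cd74 encodes the invariant chain, which fills the class II groove until H2-DM exchanges its remnant for a peptide taken up from outside. Class I is carried by nearly all nucleated cells, whereas class II is typical of B cells, dendritic cells and macrophages. NLRC5 is known as the transactivator of class I genes and CIITA as that of class II genes, and interferon-gamma raises both sets, in part through IRF1.

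The sequences upstream of the genes are shown because the class I genes H2-K1 and H2-D1 and the class II genes H2-Aa and H2-Eb1 were all lower in Ltbr-/- LT/ST-HSCs. B2m, which did not pass as lower on the deposited scale, is printed beside them. For 7 of the 10 genes a RefSeq promoter (build GRCm38.p6) was used, and the 200 bases before the listed start were searched on both strands for 4 motifs: kappaB-type (GGG, 2 free bases, TT, 1 free base and CC), the core of the Y box (ATTGG), the core of the X2 box (TGACG) and interferon-type (GAAA, 2 free bases and GAAA). Of the other genes, Tap2 and H2-Ab1 had no listed promoter, and Cd74 was left out of the search. The lines that follow are written 5′ to 3′ on the strand of the gene and end at the last base before the start. Capitals mark every match. The stretches are chr2:122147487-122147686 (plus strand) for B2m, chr17:34000348-34000547 (minus strand) for H2-K1, chr17:35262894-35263093 (plus strand) for H2-D1, chr17:34287824-34288023 (minus strand) for H2-Aa and chr17:34305667-34305866 (plus strand) for H2-Eb1.
B2m: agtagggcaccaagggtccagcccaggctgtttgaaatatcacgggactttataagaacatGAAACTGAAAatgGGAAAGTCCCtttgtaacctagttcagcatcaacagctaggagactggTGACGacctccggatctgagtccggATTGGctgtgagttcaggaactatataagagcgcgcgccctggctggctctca
H2-K1: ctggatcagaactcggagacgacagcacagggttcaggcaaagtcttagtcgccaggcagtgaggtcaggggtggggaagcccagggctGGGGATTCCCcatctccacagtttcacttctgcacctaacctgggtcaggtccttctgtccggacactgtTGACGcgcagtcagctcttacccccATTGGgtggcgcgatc
H2-D1: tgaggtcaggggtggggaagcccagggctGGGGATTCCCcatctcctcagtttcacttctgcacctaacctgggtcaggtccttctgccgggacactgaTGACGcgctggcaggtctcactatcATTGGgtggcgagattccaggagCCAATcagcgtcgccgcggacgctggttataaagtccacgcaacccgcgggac
H2-Aa: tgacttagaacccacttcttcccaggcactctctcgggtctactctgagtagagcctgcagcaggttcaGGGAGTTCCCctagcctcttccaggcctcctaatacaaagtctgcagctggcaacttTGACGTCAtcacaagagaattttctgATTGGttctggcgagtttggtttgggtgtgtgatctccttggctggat
H2-Eb1: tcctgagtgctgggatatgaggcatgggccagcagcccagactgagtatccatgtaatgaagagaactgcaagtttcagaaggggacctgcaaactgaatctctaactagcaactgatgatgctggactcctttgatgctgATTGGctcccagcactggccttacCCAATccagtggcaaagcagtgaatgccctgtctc

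H2-K1, H2-D1, B2m and H2-Aa each held a kappaB-type match, an X2 box core and a Y box core in this stretch. Counted in bases before the start, the kappaB-type match began at 111 in H2-K1, 171 in H2-D1, 131 in H2-Aa and, on the other strand, 126 in B2m. The kappaB-type letters occur in 3.39% of the same stretch of 32851 promoters, the X2 box core in 15.7%, the Y box core in 29.3% and the interferon-type letters in 2.27%. The X2 and Y box cores stood at 41 and 16 bases in H2-K1, at 78 and 53 in B2m, and at 74 and 48 in H2-Aa. In H2-Aa the X2 core also matched on the other strand at 71 bases, overlapping the match at 74. H2-D1 held an X2 core at 101 bases and Y box cores at 76 and, on the other strand, at 53. H2-Eb1 held Y box cores at 59 and, on the other strand, at 35, and no match to the other letters in this window. B2m alone of the 7 genes matched the interferon-type letters, at 139 bases. The matches did not follow the direction of the RNA on the deposited scale. B2m, with a match to every motif, did not pass as lower, and H2-Eb1, with Y box cores alone, was lower. These letters allow no mismatch, so a gene without a match may still hold an element of another spelling. Tap1 (1 X2 core, at 86 bases) and Tapbp (1 Y box core, at 165 bases) are not printed. The letters were chosen with these promoters in view, and a match is a description of sequence, not a binding site. H2-K1 has 2 listed starts, of which the first was used.

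The targeted gene fitted the labels: the signal of Ltbr was 24.2, 26.4 and 23.1 in the 3 Ltbr-/- samples and 564, 549 and 522 in the 3 Ly5.1 samples (log2 fold change -4.47, limma adjusted p = 2.15e-32). Signal is the deposited value, read from the methods and the values as 2 to the power of a regularized log of expression, which scales samples to each other but not genes to their length. Of the 26216 names, the 13108 in the upper 50% by mean were tested with limma, and p-values were adjusted over all of them by Benjamini-Hochberg. All 10 MHC and antigen processing genes were among those tested. The median log2 fold change of all tested genes was -0.01. Centring each sample on 80 ribosomal protein genes instead moved that median to -0.89 and left no gene past both thresholds as higher, so every direction given here holds for the deposited scale, and the values centred on these genes are given relative to that median. The HSC markers were all tested (13 of 13), with Kit at 5179 to 5551 in Ltbr-/- and 5849 to 6103 in Ly5.1 cells and Slamf1, which encodes CD150, at 260 to 266 and 271 to 329. Their summed signal was 16637 to 17014 in Ltbr-/- and 19028 to 19347 in Ly5.1 samples. At an adjusted p under 0.05, 3 of 13 (Ly6a, Meis1 and Cd34) were lower, against 4.18% of all tested genes. In sorted bulk cells, fewer cells that express a gene and less RNA per cell cannot be told apart.

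Loss of LTβR went along with lower RNA of both polymorphic class I heavy chains and of the 4 class II genes, and with higher RNA of the transporter subunit Tap2. All these differences were modest, 11.8% (H2-D1) to 26.2% (H2-Aa) lower and 42.3% higher (Tap2). Of the 10 genes, 7 had an adjusted p under 0.05, 6 lower and 1 higher, against 14.8% of all tested genes (4.18% lower and 10.6% higher). None of the 10 reached the threshold of the study, which adds a fold of at least 1.5 to the adjusted p and was met by 2.78% of all tested genes. At an unadjusted p under 0.05 there were 7 of the 10 and 27.1% of all tested genes. The groups did not overlap in 7 of the 10 genes, against 30.4% of all tested genes. The median log2 fold change was -0.26 over the 10 genes, -0.11 over the 6 class I genes and -0.39 over the 4 class II genes, against -0.01 over all tested genes. With 3 samples per group the exact two-sided permutation test of a single gene cannot give a p below 0.1, and it gave 0.1 for each of the 7 genes without overlap. The replicates are pools of cells. The limma p-values combine the spread of each gene between these pools with a spread shared across genes of similar signal. With each gene's own spread alone (ordinary linear model), 1 of the 10 genes, Tap2, had an adjusted p under 0.05.

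**Figure D1:**
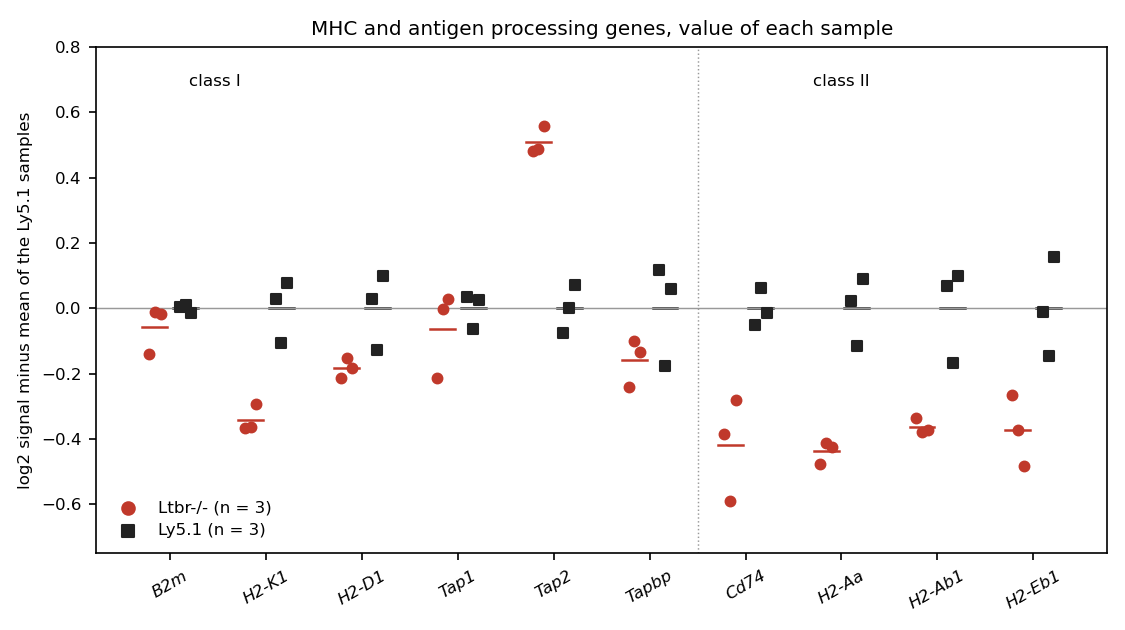
Log2 signal of each sample minus the mean of the 3 Ly5.1 samples (vertical axis, log2 units) for the 10 genes, with red circles for Ltbr-/- samples, black squares for Ly5.1 samples and horizontal lines for group means. All red circles lie below the black squares for H2-K1, H2-D1 and the 4 class II genes and above them for Tap2, on the deposited scale; centred on ribosomal protein genes, Tap2 has a log2 fold change of -0.37, which is 0.52 above the median of all genes there.

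Among the heavy chains, H2-K1 (chr17:33996012-34000619, minus strand) encodes the K molecule. Its signal was 20215, 20237 and 21278 in Ltbr-/- and 26559, 24198 and 27481 in Ly5.1 samples. Every Ltbr-/- sample was lower than every Ly5.1 sample, and the lowest Ly5.1 value was that of replicate 2. The means were 20576 ± 607 and 26080 ± 1693 (SD, n = 3 each), 21.0% lower in Ltbr-/- cells, with a log2 fold change of -0.34 (SE 0.06, limma adjusted p = 2.08e-05). H2-D1 (chr17:35263094-35267497, plus strand) encodes the D molecule. Its signal was 13034, 13585 and 13313 in Ltbr-/- and 15411, 13811 and 16158 in Ly5.1 samples. The groups stood apart by a small gap, since Ly5.1 replicate 2 lay just above the highest Ltbr-/- sample. The log2 fold change was -0.18 (SE 0.06, adjusted p = 0.0457 by limma), 11.8% lower in Ltbr-/- cells. The H2-D1 call was kept without Ly5.1 replicate 2 and lost without any of the other 5 samples, where the adjusted p reached 0.147. Quantile normalization gave a log2 fold change of -0.82 for H2-K1 and -0.54 for H2-D1. It also moved other genes of high signal down, such as B2m (from -0.06 to -0.43) and Calr (from 0.15 to -0.23). H2-Aa, of lower signal, moved only from -0.44 to -0.47. The larger differences of H2-K1 and H2-D1 under this scaling are thus no separate evidence. Of the windows of read length along their longest coding transcripts, 1.42% of H2-K1 and 6.91% of H2-D1 also occur in other genes, mostly other class I genes.

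B2m (chr2:122147687-122153082, plus strand), the light chain that every class I heavy chain needs, did not pass. Its signal was 14464.5, 15828 and 15744 in Ltbr-/- and 15982, 16046 and 15789 in Ly5.1 samples. The means of 15345 ± 764 and 15939 ± 134 (SD, n = 3) differed by a log2 fold change of -0.06 (SE 0.06, limma adjusted p = 0.595). The groups overlapped, since Ltbr-/- replicate 2 lay above Ly5.1 replicate 3, and Ltbr-/- replicate 1 was the farthest below. B2m depended on the scaling: under quantile normalization its log2 fold change was -0.43 (adjusted p = 1.21e-07, limma).

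The subunits of the peptide transporter differed from each other. Tap2 (chr17:34204479-34216321, plus strand) had a signal of 5754, 5776 and 6059 in Ltbr-/- and 3911, 4125 and 4329 in Ly5.1 samples. Every Ltbr-/- value was above every Ly5.1 value. The means were 5863 ± 170 and 4122 ± 209 (SD, n = 3), and the log2 fold change was 0.51 (SE 0.07, limma adjusted p = 9.12e-07), a fold of 1.42. Tap1 (chr17:34187556-34197225, plus strand) had a signal of 3510.5, 4059 and 4147 in Ltbr-/- and 4167, 3893 and 4140 in Ly5.1 samples. These groups overlapped, and only Ltbr-/- replicate 1 lay outside the range of the Ly5.1 samples. The log2 fold change of Tap1 was -0.06 (SE 0.08, adjusted p = 0.663 by limma) and 0.01 without Ltbr-/- replicate 1. Of the read-length windows of Tap2, 8.82% also occur in Gm15821 and Gm20496, which lie on the other strand, and the strand setting of the counting is not given in the sources used here. For Tap1 the share is 4.76%, with Psmb9 on the other strand.

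Tapbp (chr17:33919478-33929290, plus strand) had a signal of 1418, 1562 and 1529 in Ltbr-/- and 1816, 1484 and 1745 in Ly5.1 samples. Ly5.1 replicate 2 lay within the range of the Ltbr-/- samples. The log2 fold change was -0.16 (SE 0.09, limma adjusted p = 0.244), and 17.3% of its read-length windows occur in other genes, mainly Gm19412 on the other strand.

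All 4 class II genes were lower in Ltbr-/- LT/ST-HSCs, by 22.2% to 26.2%. H2-Aa (chr17:34282744-34287823, minus strand), the alpha chain of the A isotype, had a signal of 884, 924 and 916 in Ltbr-/- and 1250, 1136 and 1310 in Ly5.1 samples. The Ltbr-/- samples lay close together (908 ± 21.1) and below the Ly5.1 samples (1232 ± 88.7, SD, n = 3 each). The log2 fold change was -0.44 (SE 0.09, limma adjusted p = 0.000315). H2-Ab1 (chr17:34263227-34269418, plus strand), the beta chain of the same molecule, had a signal of 894, 868 and 871 against 1183, 1004 and 1209. Its log2 fold change was -0.36 (SE 0.09, limma adjusted p = 0.00392). As in H2-Aa, Ly5.1 replicate 2 was the lowest of its group. H2-Eb1 (chr17:34305867-34316674, plus strand), the beta chain of the E isotype, had a signal of 585, 544 and 504 in Ltbr-/- and 698, 636 and 784 in Ly5.1 samples. The log2 fold change was -0.37 (SE 0.10, limma adjusted p = 0.00548), and without Ltbr-/- replicate 3 the adjusted p was 0.0564. Cd74 (chr18:60803849-60812652, plus strand), the invariant chain, lies outside the MHC. Its signal was 1280, 1109 and 1376 in Ltbr-/- and 1613, 1744 and 1653 in Ly5.1 samples. The log2 fold change of Cd74 was -0.42 (SE 0.09, limma adjusted p = 0.000667), and here replicate 2 was the highest Ly5.1 sample. None of the read-length windows of the 4 class II genes occurs in another gene.

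The number of calls depended on the filter and the variance model. With all 26216 names in the fit, 2 of the 10 genes had an adjusted p under 0.05 (Tap2, 0.0139, and H2-Aa, 0.0396), and H2-K1 was at 0.0544. With a linear model per gene and no moderation, 1 gene passed (Tap2, adjusted p = 0.0277 over all 13108 genes), and H2-Aa was at 0.0513. At an unadjusted p under 0.05 this model gave 6 of the 10 genes and 2834 of all tested genes.

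Per kb of the longest coding transcript, the levels in Ly5.1 LT/ST-HSCs spanned from 18534 ± 156 signal per kb for B2m to 423 ± 44.3 for H2-Eb1 (SD, n = 3). H2-K1 followed B2m with 16109 ± 1046 and H2-D1 with 7196 ± 571. Then came Tap1 (1377 ± 51.3), Tap2 (1198 ± 60.7), Cd74 (1184 ± 47.8), H2-Aa (1092 ± 78.7), H2-Ab1 (934 ± 92.1) and Tapbp (580 ± 60.3). The samples of neighbours in this order overlapped only for Tap2 and Cd74 and for Cd74 and H2-Aa. All 4 class II genes lay below the class I chains and Tap1 in level per kb. In Ltbr-/- cells Tap2 (1703 ± 49.4 signal per kb) stood above Tap1 (1323 ± 117).

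Ratios between genes within a sample are not touched by a scaling factor per sample. Tap2 over Tap1 was 1.64, 1.42 and 1.46 in Ltbr-/- and 0.939, 1.06 and 1.05 in Ly5.1 samples, a difference of 0.57 in log2. H2-K1 over B2m was 1.40, 1.28 and 1.35 in Ltbr-/- and 1.66, 1.51 and 1.74 in Ly5.1 samples, a difference of -0.28. H2-K1 over H2-D1 was 1.55, 1.49 and 1.60 against 1.72, 1.75 and 1.70, a difference of -0.16. H2-K1 was thus lower relative to both its light chain and the other heavy chain, and none of these 3 ratios overlapped between groups. Within class II, H2-Oa over H2-Aa was 0.899, 1.051 and 1.002 against 0.464, 0.470 and 0.430, and H2-DMb2 over H2-Aa was 0.424, 0.429 and 0.446 against 0.222, 0.223 and 0.206. The log2 differences were 1.11 and 0.995. Neither ratio overlapped between groups, but this was fixed in advance and adds no evidence. H2-Oa and H2-DMb2 were each higher without overlap, and H2-Aa was lower without overlap. The immunoproteasome subunit Psmb8 over its constitutive counterpart Psmb5 was 6.57, 5.71 and 6.84 against 5.49, 5.42 and 5.28 (difference 0.24). Psmb9 over Psmb6 differed by -0.01 (exact permutation p = 0.8) and Psmb10 over Psmb7 by -0.36 (exact permutation p = 0.2), and both overlapped. Over the 8 ratios compared, the exact two-sided permutation p was 0.1 for the 6 without overlap, including both ratios over H2-Aa. That is the smallest that 3 against 3 can give, and it was 0.133 after Benjamini-Hochberg adjustment.

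**Figure D2:**
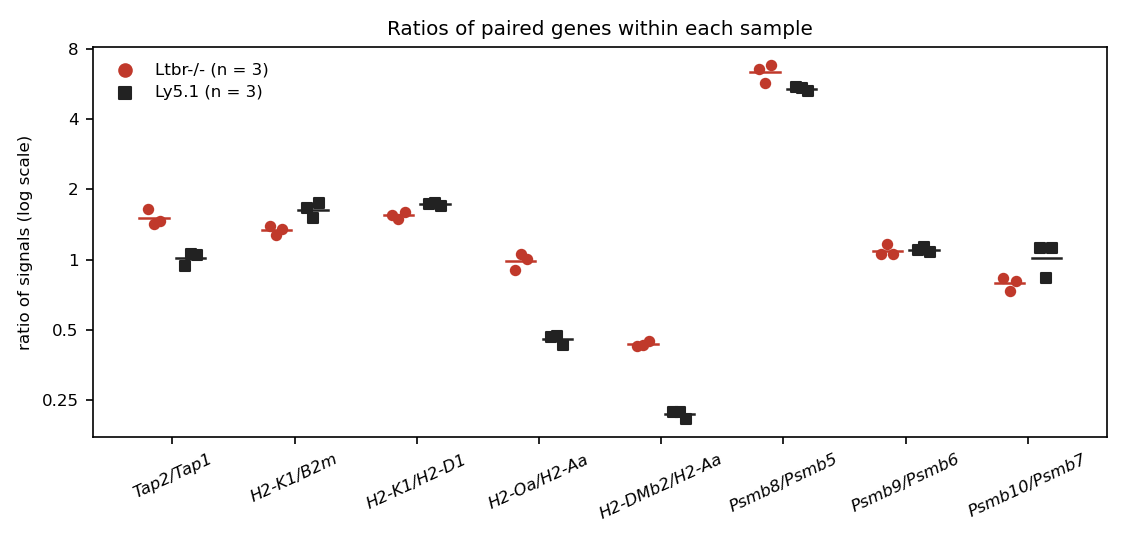
Ratio of the signals of 2 genes in each sample (vertical axis, log scale without unit) for 8 pairs. Red circles stand for Ltbr-/- samples, black squares for Ly5.1 samples and horizontal lines for geometric means. Tap2/Tap1, H2-Oa/H2-Aa, H2-DMb2/H2-Aa and Psmb8/Psmb5 are higher in all Ltbr-/- samples, H2-K1/B2m and H2-K1/H2-D1 lower, and Psmb9/Psmb6 and Psmb10/Psmb7 overlap.

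In the wider pathway the changes ran in both directions. Of 83 listed genes of antigen presentation (the 10 included), 75 were matched and 70 tested. At an adjusted p under 0.05, 9 were higher, 13 lower and 48 did not pass. Of all tested genes 14.8% passed, 10.6% as higher and 4.18% as lower. Their median log2 fold change was -0.06. Without the 10 genes, 8 of 60 were higher and 7 lower. Under quantile normalization 26 of the 70 passed, 8 higher and 18 lower. The share of all genes passing at that adjusted p was not computed for this scaling, which moved genes of high signal down. At an unadjusted p under 0.05 by limma it gave 37 of the 70 and 3763 of all 13108 tested genes. Past a fold of 1.5 there were 3, all higher on the deposited scale (H2-Q2, H2-Oa and Lgmn), against 2.78% of all tested genes. Centred on ribosomal protein genes all 9 higher genes had a negative log2 fold change, each of them above the median of all genes there. With all names in the fit 8 of the 70 had an adjusted p under 0.05, and with the model without moderation 5. At an unadjusted p under 0.05 the first of these fits gave 31 listed genes and 3538 of all 26216 names. The second gave 27 of the 70 and 2834 of all 13108 genes.

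Of the class I heavy chains and B2m, 18 were tested, 2 were higher, 3 lower and 13 did not pass. H2-Q2, a nonclassical class I gene, was the most raised, with a signal of 426, 397 and 397 in Ltbr-/- and 185, 241 and 247 in Ly5.1 samples (log2 fold change 0.87, SE 0.10, limma adjusted p = 1.82e-08). The Ltbr-/- samples were all above the Ly5.1 samples. H2-Q4, another nonclassical gene, was lower, with 3287, 3015 and 3122 against 4058, 3752 and 3970 (log2 fold change -0.32, limma adjusted p = 0.00212), and 21.2% of its read-length windows occur in other genes. H2-Q10, which encodes a secreted class I molecule, was at 0.28 (limma adjusted p = 0.0306, lost without any sample but Ly5.1 replicate 3). H2-T3, H2-M2 and H2-M5 fell below the filter on low values, and H2-K2, H2-L, H2-Q5, H2-Q8, H2-Q9 and H2-T9 were not matched by name. In the peptide loading list Tap2 was higher and the other 10 of 11 tested genes did not pass on the deposited scale. Under quantile normalization 4 of these 10 had a limma adjusted p under 0.05 as lower. All 4 are chaperones or folding enzymes of the endoplasmic reticulum, and they had the highest signals of the 10. They were Hspa5 (log2 fold change -0.48, against -0.12 on the deposited scale), Canx (-0.26 against -0.05), Pdia3 (-0.26 against 0.04) and Calr (-0.23 against 0.15), of which Pdia3 and Calr changed direction.

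Of 6 immunoproteasome and activator genes, 2 were higher and 4 did not pass. Psmb8, which lies between Tap1 and Tap2, had a signal of 6823, 7041 and 7606 in Ltbr-/- and 5111, 5015 and 5994 in Ly5.1 samples (log2 fold change 0.42, SE 0.07, limma adjusted p = 5.78e-05), with no overlap. Under quantile normalization the log2 fold change of Psmb8 was 0.23 (limma adjusted p = 0.0149). Psmb9, next to Tap1, was at 0.23 (limma adjusted p = 0.0497), and the call was lost without any sample but Ly5.1 replicate 3 and under quantile normalization (adjusted p = 0.140). Psmb10, the other inducible catalytic subunit, was at -0.02 (limma adjusted p = 0.926). Of the constitutive counterparts, Psmb6 and Psmb7 were higher as well (log2 fold changes 0.25 and 0.34), and Psmb5 was at 0.18 (limma adjusted p = 0.213).

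Of 9 tested genes of the class II list, 3 were higher, 4 lower and 2 did not pass. The 4 lower genes were Cd74, H2-Aa, H2-Ab1 and H2-Eb1, and the listed chains H2-Eb2 and H2-Ea-ps lay below the filter on low values. H2-DM and H2-O are accessory molecules that act on the loading of peptides onto class II. Of their 5 genes 3 were higher, against 10.6% of all tested genes. H2-Oa, the alpha chain of H2-O, had a signal of 794, 971 and 918 in Ltbr-/- and 581, 534 and 563 in Ly5.1 samples (log2 fold change 0.67, SE 0.09, limma adjusted p = 6.52e-07). H2-DMb2, a beta chain of H2-DM, had 375, 396 and 408 against 278, 253 and 270 (log2 fold change 0.56, SE 0.09, limma adjusted p = 1.90e-05). In both genes every Ltbr-/- sample was above every Ly5.1 sample. H2-DMb1 was at 0.31 (limma adjusted p = 0.0150, lost without Ltbr-/- replicate 3 or Ly5.1 replicate 3). The partner chains H2-DMa (-0.04, limma adjusted p = 0.828) and H2-Ob (0.12, limma adjusted p = 0.466) did not pass. Of the read-length windows, 18.9% of H2-DMb1 and 19.7% of H2-DMb2 are shared, mainly between the 2 genes, and 17.1% of H2-Oa occur in other genes, with BC051537 on the other strand. Lgmn, an endosomal protease, had a signal of 621, 557 and 536 against 317, 352 and 335 (log2 fold change 0.77, SE 0.09, limma adjusted p = 4.92e-08), and the other 4 tested genes of class II peptide processing did not pass.

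Among the regulators none was higher at an adjusted p under 0.05, beside 10.6% of all tested genes. Over all tested genes 4.18% were lower. Nlrc5 had a signal of 2920, 2486 and 2461 in Ltbr-/- and 3357, 3354 and 3193 in Ly5.1 samples (log2 fold change -0.34, SE 0.08, limma adjusted p = 0.00263). Rfx5 and Nfya, DNA-binding partners of NLRC5 and CIITA, were at -0.28 (limma adjusted p = 0.0335, lost without replicate 2 or 3 of either group) and -0.29 (adjusted p = 0.0242 by limma, lost without Ltbr-/- replicate 2 or Ly5.1 replicate 1). Ciita was weakly expressed and did not differ beyond its spread, at 80.0, 80.3 and 87.2 against 85.2, 90.6 and 81.6 (log2 fold change -0.06, limma adjusted p = 0.685). Of 9 transactivator genes, 3 were thus lower and 6 did not pass. Of 12 genes of interferon input, 3 were lower and 9 did not pass. Irf1 was at -0.34 (limma adjusted p = 0.00676, lost without Ly5.1 replicate 2) and Jak1 at -0.29 (limma adjusted p = 0.00498, lost without Ltbr-/- replicate 2).

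**Figure D3:**
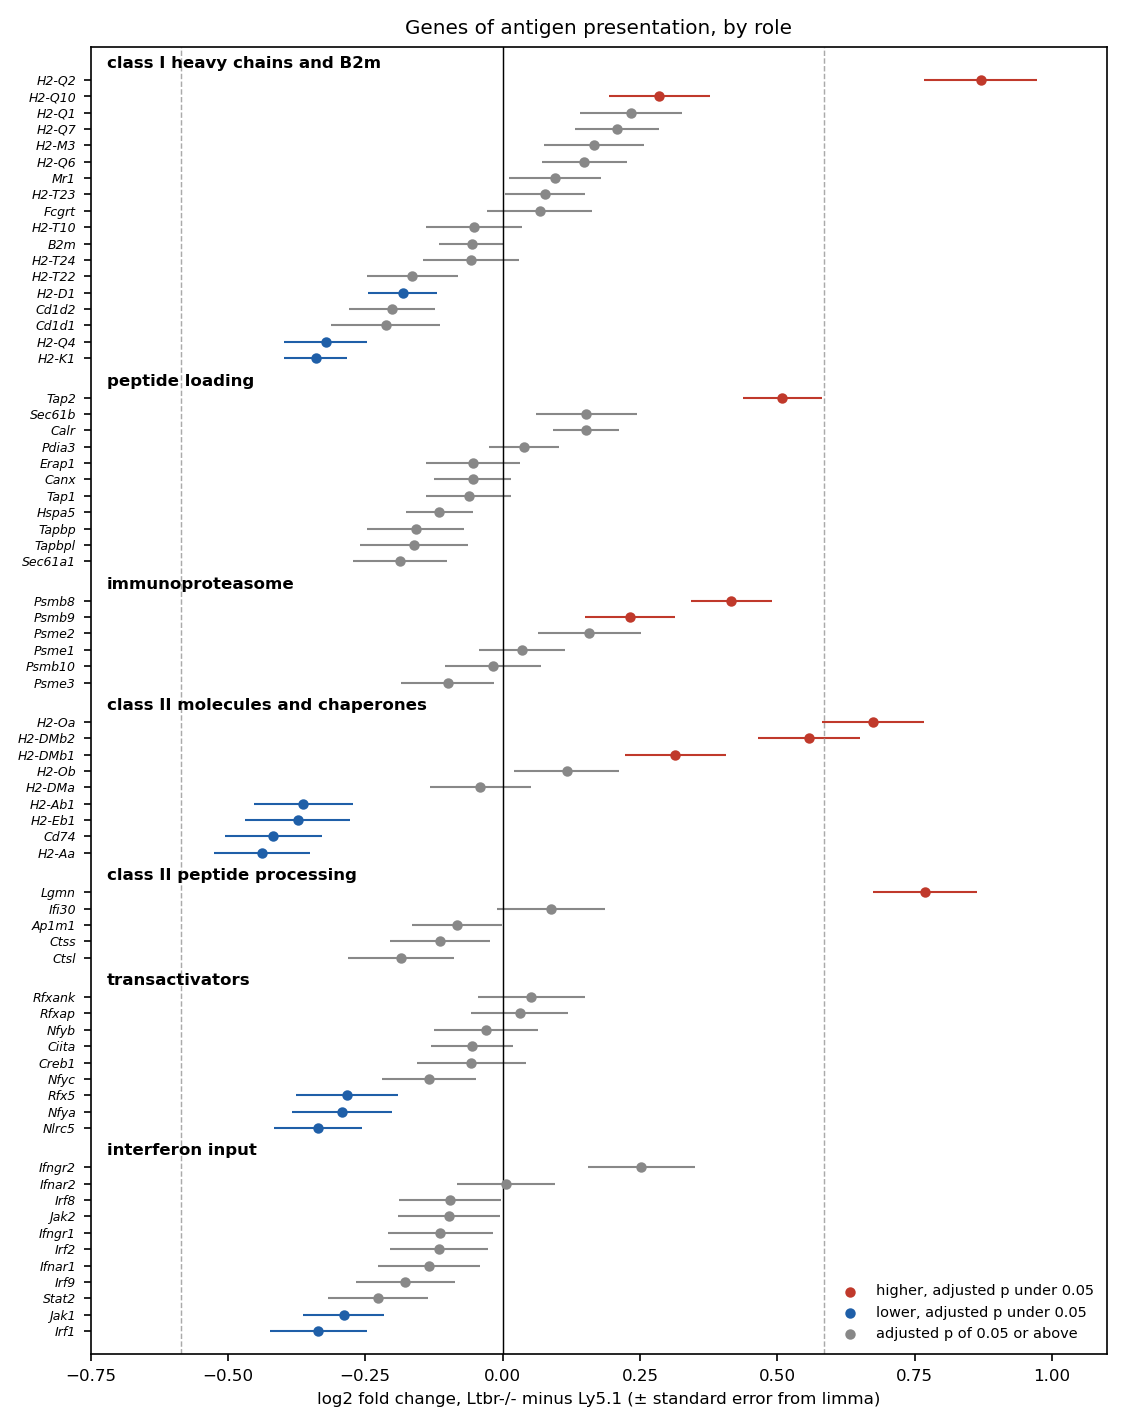
Log2 fold change of Ltbr-/- against Ly5.1 (horizontal axis, log2 units, points with limma standard error) for tested genes of 7 lists, with red for higher and blue for lower at an adjusted p under 0.05, grey for the rest and dashed lines at a fold of 1.5. In the class II list H2-Oa, H2-DMb2 and H2-DMb1 lie on the right, Cd74, H2-Aa, H2-Ab1 and H2-Eb1 on the left and H2-Ob and H2-DMa near 0, on the deposited scale; centred on ribosomal protein genes all red genes have negative values that lie above the median of all genes.

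Of the 10 genes, 8 lie on chromosome 17 within the MHC. Between the start of Tapbp and the end of H2-D1 (chr17:33919478-35267497, GRCm38.p6, 1348 kb), 76 of 132 RefSeq genes were tested, and 19 were higher, 7 lower and 50 did not pass. That is 34.2%, beside 14.8% of all tested genes, and the share was not tested. It includes genes counted above, Tap2 as higher and H2-K1, H2-D1, H2-Aa, H2-Ab1 and H2-Eb1 as lower. The bounds were also set by genes of the examined set, Tapbp and H2-D1. Higher and lower genes stood side by side. Counted from the start of Tap2, Psmb9 begins at -22.4 kb, Tap1 at -16.9 kb and Psmb8 at -6.28 kb, and of these genes and Tap2 only Tap1 did not pass as higher. H2-Ab1, H2-Aa and H2-Eb1, which begin 58.7, 78.3 and 101 kb after the start of Tap2, were lower. H2-K1, at -208 kb, and H2-D1, at 1059 kb, were both lower.

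**Figure D4:**
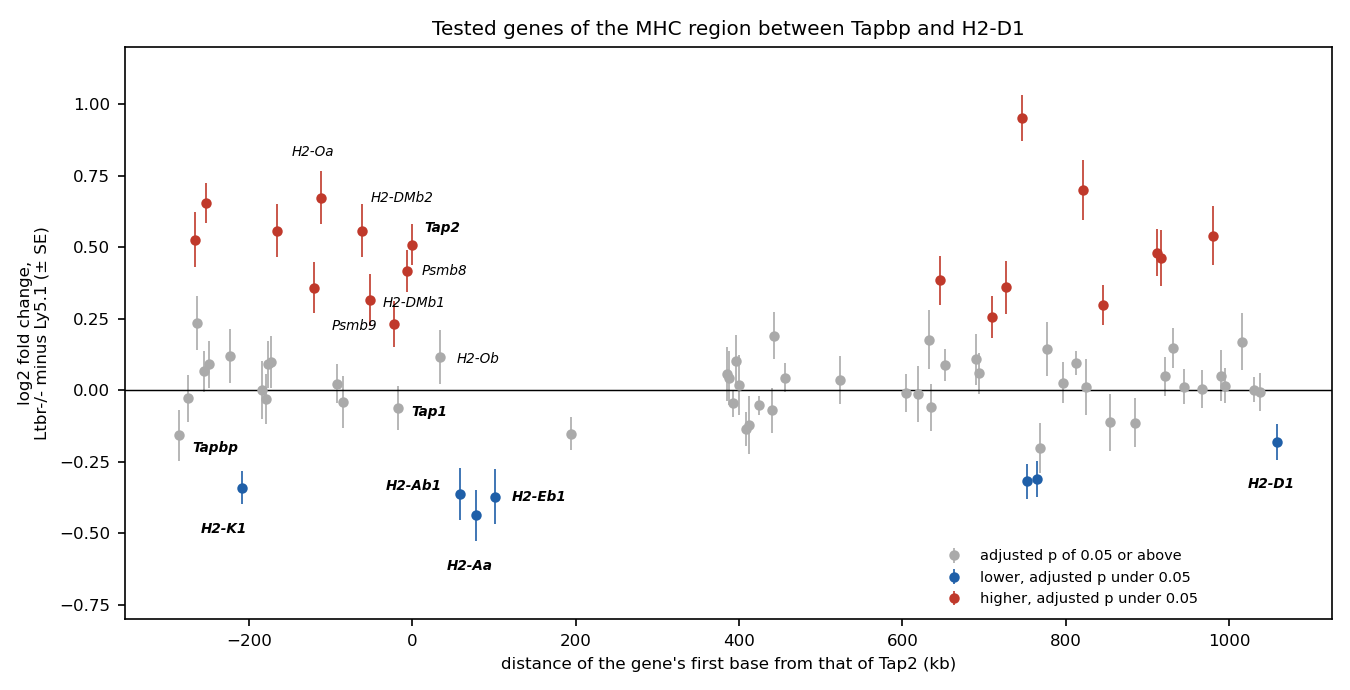
Log2 fold change with limma standard error (vertical axis, log2 units) against the distance of each gene from the start of Tap2 (horizontal axis, kb) for the 76 tested genes between Tapbp and H2-D1, with red for higher and blue for lower at an adjusted p under 0.05 and grey for the rest; the MHC and antigen processing genes are in bold. Tap2 and its neighbour Psmb8 lie above 0 and the 3 class II chain genes and both class I heavy chain genes below 0 on the deposited scale. Centred on ribosomal protein genes, Tap2 and Psmb8 turn negative, but stay 0.52 and 0.43 above the median of all genes there (-0.89).

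Markers of other cells that the sort could hold moved in both directions. The summed signal of 12 B cell markers was 1417 to 1552 in Ltbr-/- and 2272 to 2435 in Ly5.1 samples. That difference lay in the immunoglobulin genes Ighm (575 to 718 against 1253 to 1455) and Igkc (204 to 209 against 414 to 515). Cd79a ran the other way (274 to 304 against 168 to 212). The defining markers Ms4a1 (1.152 to 1.174 in all samples) and Pax5 (1.70 to 1.72) lay below the filter on low values, and 8 of the 12 markers were not tested. Of 11 dendritic cell markers 6 were tested and 1 (Flt3) was lower, with sums of 974 to 1131 against 1175 to 1207. Itgax was at 90.1 to 107 against 83.0 to 96.9 and Zbtb46 at 23.87 to 24.97 against 25.08 to 27.92, and Xcr1 (0.570 to 0.575) was not tested. Of 11 macrophage and monocyte markers 10 were tested and 2 (Cd68 and Adgre1, listed under its older symbol Emr1) were higher. Emr1 was at 1120 to 1397 against 658 to 736, Csf1r at 403 to 459 against 462 to 573 and C1qa at 16.6 to 17.2 against 16.6 to 17.6. The sums of this list were 3587 to 3928 against 3156 to 3417. Of the T and NK cell markers none of 4 tested passed (sums of 288 to 297 against 287 to 316), with Cd3e at 0.979 to 0.996. All 8 granulocyte markers were lower, with sums of 40019 to 40437 against 53156 to 57137. Beside these marker counts, 10.6% of all tested genes were higher and 4.18% lower at an adjusted p under 0.05. The part of these cells in the lower class I and class II values was not tested.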

How the data were processed

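RNA from FACS-purified LT/ST-HSCs was sequenced by the authors from stranded mRNA libraries as single reads of 76 bases, assembled with SeqMan NGen and quantified with ArrayStar; the submitters' processing notes also name DESeq2 and the builds GRCm38 and mm10. The authors deposited 1 signal per gene name and sample (26595 per file, 26216 names). The values are read as 2 to the power of a regularized log, from the methods and from the values themselves (9392 entries equal 1 in all samples). The files hold no counts; the study's methods give a mean number of reads per sample, but the reads behind each value cannot be read from the files, so no interval or detection limit was computed, and precision rests on 3 replicates per group. A regularized log understates changes of weakly expressed genes.

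Of the 75 repeated names, the row of highest mean signal was used. In limma 3.58.1 (R 4.3.3), lmFit and a trended eBayes were run on the log2 signal, by genotype alone and without further scaling or pseudocount, over the 13108 names in the upper 50% by mean, with Benjamini-Hochberg adjustment over all of them and, for calls, the thresholds of the study (adjusted p under 0.05, fold of at least 1.5). The fit was tested on simulated data. Single genes and ratios were compared with exact two-sided permutation tests (scipy 1.17.1). The text names the 10 genes, Ltbr, the listed genes past both thresholds, the gene of each list with the largest change and defining markers of other cells; listed genes past the adjusted p alone, the ratios, Ciita, H2-Ob, H2-DMa, Psmb5, Psmb6, Psmb7, Psmb10, Hspa5, Canx, Pdia3, Calr, Pax5 and other markers were added after their values were seen. Single genes that the rule names but the text and plots leave out are not reported here. The genes, lists and motifs were chosen with earlier results of these data known. In the files 14 names appear as numbers, and March1 and March8 could not be matched. Positions and promoters are from RefSeq (GRCm38.p6), and transcripts, cut into windows of 76 bases to find shared sequence, from GENCODE M21. Alternatives were other filters, scalings, variance models and thresholds, a pseudocount, the mean of repeated names, the replicate number as a block and leaving out each sample in turn.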

Additional observations from a re-analysis of the deposited data

How the results depend on the processing

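The 10 genes kept their direction under every alternative run, except Tap1 (log2 fold change 0.013 without Ltbr-/- replicate 1, and down to -0.107 without another sample) and Tap2 (-0.37 centred on ribosomal protein genes, where the median of all genes was -0.89). Whether samples with the same replicate number share hosts could not be told. Their deviations correlated at 0.03, -0.01 and 0.09, the last being the highest of all pairs of an Ltbr-/- and a Ly5.1 sample. Ltbr-/- replicate 1 correlated best with Ly5.1 replicate 2. With so few samples per group, low correlations cannot exclude a pairing. With the replicate block, 364 of all genes, 3 of the listed genes and 0 of the 10 were called, and 7 of the 10 and 24 listed genes had an adjusted p under 0.05; it changed the call of none of the 10. Genes called by adjusted p and fold numbered 364 of all tested genes, 12010 centred on ribosomal protein genes (all lower), 1936 without a fold threshold, 42 at a fold of at least 2 and 342 to 407 when 1 sample was left out. Of the 10 genes, 0 were called, but 1 under quantile normalization, 9 centred on ribosomal protein genes, 7 without a fold threshold and 0 in each fit with 1 sample left out. Of the listed genes, 3 were called, 63 centred on ribosomal protein genes and 22 without a fold threshold. At a fold of at least 2 there were 0, and 3 to 4 when 1 sample was left out. Whatever their fold, 30 listed genes had an unadjusted p under 0.05 by limma in the main fit. An adjusted p under 0.05 was met by 7 of the 10 genes, 2 without a filter, 1 without moderation and 5 to 7 when 1 sample was left out, and by 22 listed genes, 8 without a filter, 67 centred on ribosomal protein genes, 5 without moderation and 16 to 22 when 1 sample was left out. The causes were not tested. The files hold no counts per gene, so no detection limit was computed for genes below the filter such as H2-Eb2 (2.45 to 2.51).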
